A study of Homo sapiens with 14 samples.

Results

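The data described here are the RNA levels of 10 secreted cytokine genes, the interleukins IL1A, IL1B, IL1RN, IL6, IL7, IL11, IL15, IL18 and IL32 and the cytokine LIF, in cancer cells treated with inhibitors of the cell cycle. The 10 genes were chosen by symbol, for their place among the factors that senescent cells can secrete, and were found among the 60683 genes of every count table. RNA of 14 libraries was counted, in 7 groups of 2 libraries. A549, a lung cancer line, was untreated, treated for 10 days with 2 μM palbociclib (an inhibitor of CDK4 and CDK6), for 10 days with 0.5 μM indisulam (a sulfonamide that leads to loss of the splicing factor RBM39), for 10 days with both at these doses, or for 7 days with 0.5 μM PF-06873600 (which inhibits CDK2 as well as CDK4 and CDK6). SUM159, a breast cancer line, was untreated or treated for 7 days with 0.5 μM PF-06873600. The lines were grown in different media, and only that of SUM159 was supplemented with insulin and hydrocortisone. The study asked whether joint inhibition of CDK2 and CDK4/6 drives these cells into senescence. The duplicates are described as technical, the cultures hold tumor cells without stroma or immune cells, and no collection time is given for untreated cells. The p-values therefore measure the spread between libraries, which may be technical. That spread was unequal. The chi-square of gene counts between duplicates, per degree of freedom, was 10.5 in untreated A549 and 9.99 in untreated SUM159. It was 5.48, 3.31 and 2.35 in A549 with palbociclib, indisulam and both, and 1.66 and 2.45 with PF-06873600 in A549 and SUM159. The groups of a fit share their estimate of spread, so the SEs do not reflect these differences.

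As background, cells in senescence stop dividing but stay active, and many secrete a mixture of cytokines, growth factors and proteases. IL-1α, the product of IL1A, is held at the cell surface or inside the cell and acts through the receptor IL1R1, whose signal turns on NF-κB and with it IL6 and other secreted factors. IL-1β and IL-18 are made as precursors that caspase-1 can cut, whereas IL1RN encodes an antagonist that occupies IL1R1 without a signal. IL-6, IL-11 and LIF share the signal-transducing receptor chain gp130 (IL6ST). IL-7 and IL-15 use the common gamma chain (IL2RG), and IL-32 belongs to none of these families.

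The libraries held 13060374 to 21149256 counts on genes. Levels are given as CPM (counts scaled to 1e6 counts on genes), and 3 counts, taken as the smallest level a library can show, correspond to 0.142 to 0.23 CPM. This limit and the intervals on low counts cover counting error only. Markers of A549 summed to 15086 to 20278 CPM in its libraries and to 555 to 804 CPM in SUM159. In SUM159 the hormone receptor PGR had 0 counts in all libraries and ESR1 had 1 to 14 counts, whereas ERBB2 averaged 120 CPM in untreated cells. The T cell marker CD3E had 0 counts in all 14 libraries. The other marker lists moved with the groups. The summed level of 5 fibroblast genes, COL1A1 above all, was 2.00 to 2.11 CPM in untreated A549 and 82.3 to 83.7 CPM with both drugs, with 4 of the 5 above 3 counts there, and it was 1755 to 1848 CPM in untreated and 4323 to 4492 CPM in treated SUM159, with all 5 above 3 counts. The summed level of 7 leukocyte genes was 7.73 to 9.04 CPM in untreated A549. It was 17.5 to 18.4 CPM with indisulam and 13.7 to 15.2 CPM with both drugs. In SUM159 it was 10.7 to 11.2 CPM in untreated cells and 27.7 to 30.2 CPM with PF-06873600. There 5 of the 7 were above 3 counts with the drug. PTPRC, which marks white blood cells, averaged 9.62 CPM in untreated and 19.1 CPM in treated SUM159. The part of these markers in the results below was not tested. In bulk RNA of a line, more cells that express a gene and more RNA per cell cannot be told apart. As a check of some of the treatments, the CDK inhibitor gene CDKN1A averaged 41.4 CPM in untreated A549, 674.6 CPM with both drugs and 513.7 CPM with PF-06873600. It was 9.18-fold higher with indisulam in A549 and 2.01-fold higher with PF-06873600 in SUM159. MKI67, a gene of dividing cells, was 0.807-fold its untreated level with indisulam and 0.168-fold with both drugs in A549. In SUM159 it was 0.245-fold with PF-06873600. Palbociclib alone is not part of this check.

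RefSeq promoter windows of GRCh38.p14 were found for 6 of the 10 genes, IL1A, IL1B, IL1RN, IL6, IL11 and IL32. Each stretch shown lies before 1 RefSeq start site, at chr2:112784494-112784743 for IL1A (minus strand), chr2:112836817-112837029 for IL1B (minus strand), chr7:22726950-22727146 for IL6 (plus strand) and chr19:55370464-55370713 for IL11 (minus strand), and, for IL32, covers 30 bases around a match that falls in an annotated exon at chr16:3065294-3065323 (plus strand). The stretch of IL6 and most of that of IL32 lie inside the span of the gene, downstream of its first annotated base. The stretches are shown because IL1A, IL1B, IL6 and IL32 rose several-fold in the tests below, and because IL11 rose in A549 while its SUM159 groups overlapped. Capitals mark letters that match a κB motif of NF-κB, TGANTCA of AP-1, TTGCNNAA of C/EBP or TTCNNNGAA of STAT factors, each searched on both strands of the 250 bases before the start. Those 250 bases are shown except where they enter an annotated exon. IL1A and IL32 have 2 windows each, of which the first is shown. The second window of IL1A held 2 AP-1 matches, 1 of them the match shown, and the second of IL32 held none. IL1RN, which also rose but stayed under 1 CPM, has 3 windows that are not shown. Its window 1 held 1 AP-1 match, and its windows 2 and 3 held no match to any of these motifs.
IL1A: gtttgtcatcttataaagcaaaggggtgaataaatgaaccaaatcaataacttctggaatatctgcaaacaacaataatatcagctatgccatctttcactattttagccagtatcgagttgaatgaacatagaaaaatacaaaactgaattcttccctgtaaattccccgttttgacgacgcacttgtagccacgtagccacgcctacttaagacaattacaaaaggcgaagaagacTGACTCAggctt
IL1B: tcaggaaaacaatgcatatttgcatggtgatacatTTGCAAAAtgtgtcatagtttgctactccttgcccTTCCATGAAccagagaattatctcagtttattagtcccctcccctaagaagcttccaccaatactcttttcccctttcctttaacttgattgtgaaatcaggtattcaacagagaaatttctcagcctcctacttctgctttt
IL6: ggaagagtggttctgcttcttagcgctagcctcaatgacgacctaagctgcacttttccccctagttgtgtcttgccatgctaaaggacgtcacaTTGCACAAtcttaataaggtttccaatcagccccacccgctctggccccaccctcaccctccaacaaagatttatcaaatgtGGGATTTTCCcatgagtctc
IL11: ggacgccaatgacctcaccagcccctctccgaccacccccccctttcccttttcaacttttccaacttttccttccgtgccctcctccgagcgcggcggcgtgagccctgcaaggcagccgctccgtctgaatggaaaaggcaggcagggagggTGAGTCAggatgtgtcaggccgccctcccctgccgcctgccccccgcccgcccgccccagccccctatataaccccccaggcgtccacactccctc
IL32: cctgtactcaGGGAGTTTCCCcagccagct
The κB letters of IL6 lie 73 to 64 bases before the start and its C/EBP letters 155 to 148 bases before it. In IL32 the κB match was found on both strands, as 2 overlapping matches between 99 and 89 bases before the start. Of 35116 promoter windows of this length in RefSeq, 9.96% held the κB motif, 6.57% the AP-1 motif, 9.05% the C/EBP motif and 6.57% the STAT motif. Which start site these cells used was not measured.

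In the IL-1 family, the response of IL1B and IL18 to PF-06873600 differed between the lines, as tested below. IL1B (ENSG00000125538, hg38 chr2:112829751-112836816, minus strand) encodes the secreted IL-1β precursor. Its level was 0.544 and 0.533 CPM in untreated A549, 1.56 and 1.04 CPM with palbociclib, 5.25 and 4.16 CPM with indisulam, 5.53 and 5.54 CPM with both and 1.30 and 1.36 CPM with PF-06873600. All 8 treated A549 libraries lay above both untreated ones, and the indisulam and combination libraries lay above the others. In SUM159 it was 0.362 and 0.376 CPM in untreated cells and 23.5 and 24.4 CPM with PF-06873600, with no overlap.

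IL1A (ENSG00000115008, chr2:112773925-112784493, minus strand), whose product starts the IL-1 signal of senescent cells, was at the limit in A549. It had 0 and 1 counts in the untreated libraries, 1 in each palbociclib library, 3 and 4 with indisulam, 5 and 14 with both, and 1 and 0 with PF-06873600. Of the 19 counts in the combination, 14 came from replicate 2. In SUM159 it was 0.965 and 0.689 CPM in untreated cells and 15.4 and 14.4 CPM with PF-06873600. The gene was thus detected in all 4 SUM159 libraries and raised in both treated ones.

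IL1RN (ENSG00000136689, chr2:113099315-113134016, plus strand), the antagonist, stayed under 1 CPM throughout. It had 1 and 0 counts in untreated A549, 5 and 2 with palbociclib, 4 and 4 with indisulam, 11 and 14 with both, and 7 and 7 with PF-06873600. In SUM159 it had 0 counts in both untreated libraries and 13 and 12 with PF-06873600. Against the limit of 3 counts in each untreated library, that is an at least 3.60-fold higher level.

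IL18 (ENSG00000150782, chr11:112143253-112164096, minus strand), a cytokine that activates T and NK cells, had 1434 counts or more in every library. Its level was 127 and 142 CPM in untreated A549, 147 and 140 CPM with palbociclib, 193 and 205 CPM with indisulam, 269.5 and 249.7 CPM with both, and 171 and 169.8 CPM with PF-06873600. The untreated and palbociclib libraries overlapped, and the other groups followed in the order PF-06873600, indisulam and both drugs without overlap. In SUM159 it was 94.3 and 91.1 CPM in untreated cells and 83.8 and 80.1 CPM with PF-06873600, which is lower in both treated libraries.

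IL6 (ENSG00000136244, chr7:22725884-22732002, plus strand), the best known cytokine of senescent secretion, followed the drugs in both lines. It was 0.544 and 0.533 CPM in untreated A549, 2.52 and 1.89 CPM with palbociclib, 3.18 and 2.38 CPM with indisulam, 7.09 and 7.40 CPM with both and 6.97 and 6.37 CPM with PF-06873600. The palbociclib and indisulam libraries overlapped, and every treated library lay above the untreated ones. In SUM159 it rose from 1.99 and 1.19 CPM to 50.7 and 48.4 CPM. It shares 428 exonic bases with IL6-AS1 on the other strand, and the use of strand in counting is not given in the sources used here, so reads of the pair may not be separable.

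IL11 (ENSG00000095752, chr19:55364382-55370463, minus strand), known from fibroblasts and bone metastasis, was detected in both lines and reached its highest levels in treated A549. It was 0.408 and 0.467 CPM in untreated A549, 0.297 and 1.04 CPM with palbociclib, 1.94 and 1.65 CPM with indisulam, 2.98 and 4.38 CPM with both and 2.14 and 1.55 CPM with PF-06873600. The 2 palbociclib libraries straddled the untreated ones. In SUM159 the untreated libraries had 14 and 4 counts and each PF-06873600 library had 6, so that the groups overlapped.

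LIF (ENSG00000128342, chr22:30240453-30246759, minus strand), which keeps stem cells undifferentiated, was abundant in A549 and scarce in SUM159. It was 56.4 and 43.6 CPM in untreated A549, 61.4 and 73.0 CPM with palbociclib, 89.3 and 79.6 CPM with indisulam, 101 and 98.1 CPM with both and 84.5 and 80.0 CPM with PF-06873600. The indisulam and PF-06873600 libraries overlapped. In SUM159 it was 1.69 and 1.82 CPM in untreated cells and 7.66 and 7.94 CPM with PF-06873600. It shares 86 exonic bases with LIF-AS1 and 83 with LIF-AS2.

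The cytokines of the common gamma family among the 10 genes are IL15 and IL7. IL15 (ENSG00000164136, chr4:141636583-141733987, plus strand), which sustains NK and memory T cells, was 18.6 and 14.9 CPM in untreated A549, 16.7 and 16.5 CPM with palbociclib, 19.0 and 17.9 CPM with indisulam, 11.9 and 10.8 CPM with both and 10.4 and 7.91 CPM with PF-06873600. The last 4 libraries lay under all others of the line. In SUM159 the order was opposite, with 1.57 and 0.939 CPM in untreated cells and 5.67 and 4.92 CPM with PF-06873600. IL7 (ENSG00000104432, chr8:78675743-78805523, minus strand), needed for lymphocyte growth, had 0 to 5 counts in each A549 library. In SUM159 it was 2.23 and 2.00 CPM in untreated cells and 1.34 and 1.56 CPM with PF-06873600. It shares 322 exonic bases with ZC2HC1A on the other strand.

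IL32 (ENSG00000008517, chr16:3065297-3082192, plus strand), a cytokine that induces other inflammatory factors, was near the limit in untreated A549. It was 0.0680 and 0.267 CPM (1 and 4 counts) in untreated A549, 0.297 and 0.427 CPM with palbociclib, 2.00 and 2.05 CPM with indisulam, 19.6 and 19.3 CPM with both and 4.98 and 4.20 CPM with PF-06873600. Indisulam, PF-06873600 and both drugs followed in this order above the untreated and palbociclib libraries, without overlap. Untreated replicate 2 and palbociclib replicate 1 had 4 counts each, so these groups are not ranked. In SUM159 it was already 35.9 and 36.9 CPM in untreated cells and 134 and 138 CPM with PF-06873600. It shares 129 exonic bases with the pseudogene RNU1-125P on the same strand.

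**Figure D1:**
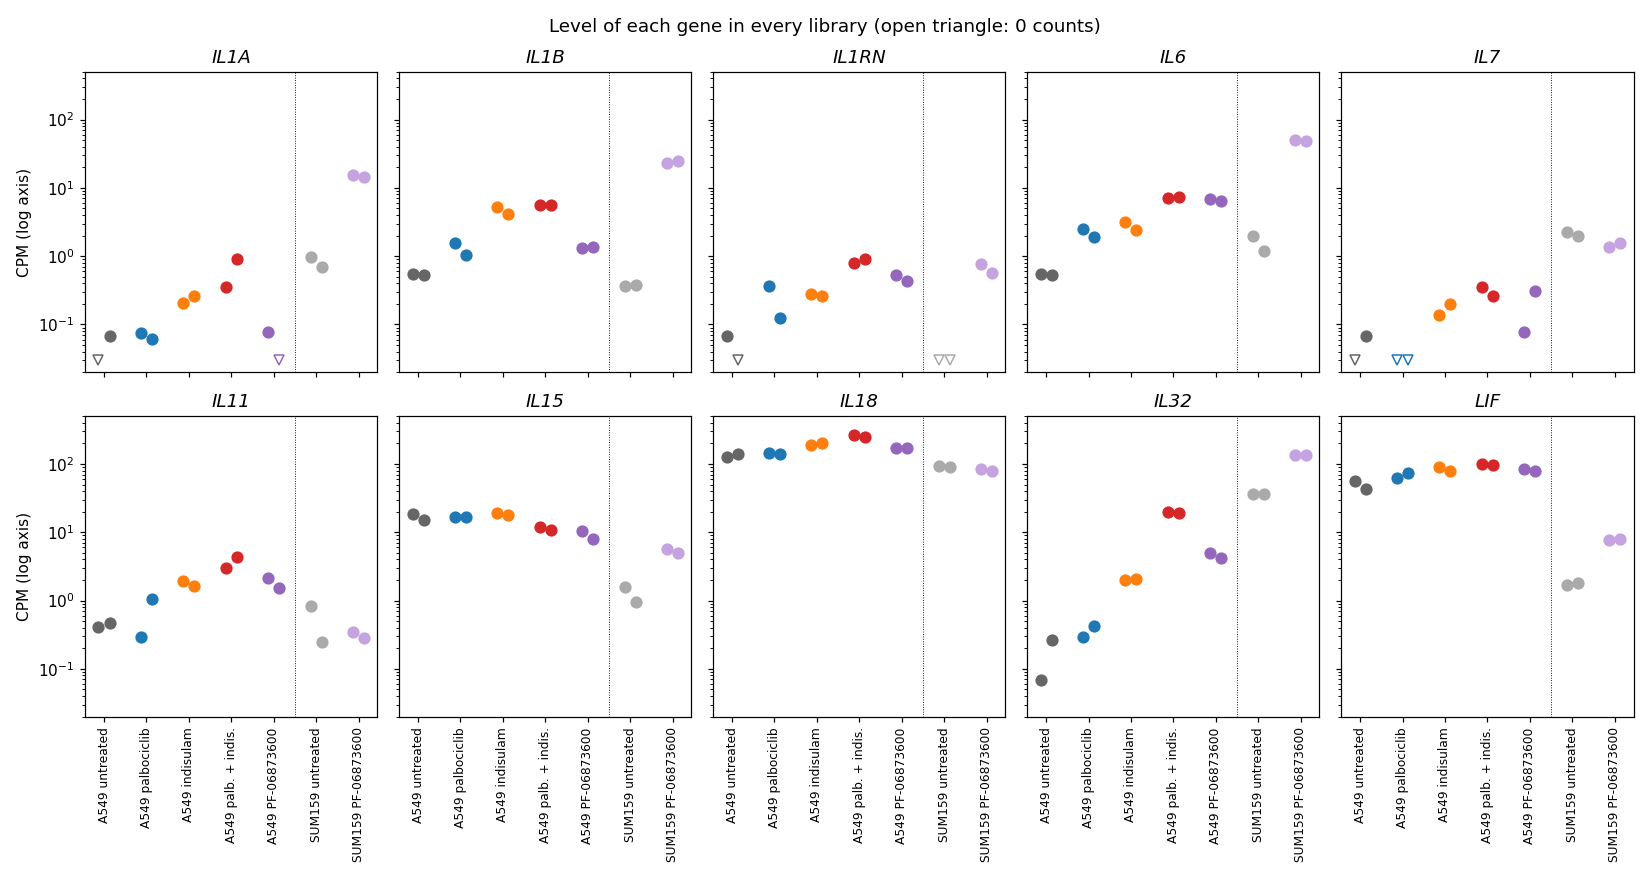
Level of each of the 10 genes in CPM (log axis) in every library, by group, 2 points a group, with open triangles for libraries with 0 counts and a dotted line between A549 and SUM159. IL32 runs from 0.0680 CPM in an untreated A549 library to 138 CPM in a treated SUM159 library, and IL15 is lower in A549 but higher in SUM159 with PF-06873600.

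Per kilobase of exon, the scale on which genes can be compared, the mean level was highest for IL18 in untreated A549 (51.7 ± 4.0 CPM per kb, SD, n = 2), followed by LIF (12.9 ± 2.34) and IL15 (2.13 ± 0.325), and the other 7 genes were at or under 0.179. In untreated SUM159 the order began with IL18 (35.6 ± 0.884) and IL32 (11.3 ± 0.209). With PF-06873600, SUM159 had IL32 first (42.3 ± 0.767), then IL18 (31.5 ± 1.03), IL6 (11.5 ± 0.371), IL1B (7.95 ± 0.200) and IL1A (7.40 ± 0.355). The means of IL1B and IL1A lay no farther apart than the sum of their SDs.

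The tests below are edgeR's quasi-likelihood tests, with changes on the log2 scale ± SE and p-values adjusted over all genes tested by Benjamini-Hochberg, and a gene is called when that p is under 0.05. In A549, 8 of the 10 genes passed the filter on low counts. IL1A and IL7 did not, and IL1B, IL1RN, IL6, IL11 and IL32 were under its limit of 0.673 CPM in both untreated libraries and passed through treated ones. Counts of genes called among those tested are therefore a description.

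With palbociclib alone, 3 of the 8 tested genes rose and none fell, beside 8.3% of all 15780 genes that rose and 7.4% that fell. IL6 rose by 2.00 ± 0.33 (4.01-fold, adjusted p = 0.000793), IL1B by 1.23 ± 0.37 (adjusted p = 0.0366) and LIF by 0.43 ± 0.11 (adjusted p = 0.0152). The values for IL15 and IL18 were −0.01 ± 0.13 and 0.09 ± 0.07, and IL11 and IL32 did not pass either, with 0.67 ± 0.58 and 1.09 ± 0.63. IL1RN, with 7 counts against 1 (ratio 6.97, 95% interval 0.895 to 313.9), did not pass (adjusted p = 0.14). The median over the 8 genes was 0.88, beside −0.01 over all genes. The calls of IL1B and LIF were lost when only the 4 libraries compared entered the fit (adjusted p = 0.117 and 0.106). They were also lost without untreated replicate 2 (adjusted p = 0.102 for IL1B and 0.0656 for LIF). IL1B was lost without untreated replicate 1 (adjusted p = 0.086) or palbociclib replicate 1 (adjusted p = 0.249), and LIF without palbociclib replicate 2 (adjusted p = 0.179).

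With indisulam alone, 7 of the 8 tested genes rose and none fell, where 28% of all genes rose and 17.5% fell. IL32 rose by 3.53 ± 0.43 (11.5-fold, adjusted p = 1.23e-05) and IL1B by 3.11 ± 0.29 (8.61-fold, adjusted p = 8.48e-07). IL6, IL11, LIF and IL18 rose by 2.35 ± 0.31, 2.01 ± 0.48, 0.76 ± 0.11 and 0.56 ± 0.07, and IL15 did not pass (0.14 ± 0.13, adjusted p = 0.395). IL1RN, with 8 counts against 1 (ratio 8.03, 95% interval 1.08 to 356), passed narrowly (adjusted p = 0.0491), and its log2 change was 5.05 without untreated replicate 1, and its call was lost without untreated replicate 2 (1.87, adjusted p = 0.232) or either indisulam replicate (adjusted p = 0.132 and 0.121). The change of IL32 was 2.89 without untreated replicate 1 and 4.74 without untreated replicate 2. Scaling by TMM gave 3613 genes higher and 3558 lower in place of 4420 and 2757.

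With both drugs, 7 of the 8 tested genes rose and IL15 fell, beside 35.1% of all genes that rose and 30% that fell. Scaling by TMM gave 4908 genes higher and 5397 lower in place of 5544 and 4739. IL32 rose by 6.79 ± 0.27 (110-fold, adjusted p = 2.73e-11), from 5 counts in all in untreated cells, and this was 6.15 without untreated replicate 1 and 7.99 without untreated replicate 2. IL6 rose by 3.73 ± 0.26 (13.3-fold), IL1B by 3.34 ± 0.28 (10.1-fold), IL11 by 3.06 ± 0.42, LIF by 0.99 ± 0.11 and IL18 by 0.95 ± 0.07. IL1RN had 25 counts against 1 (ratio 25.1, 95% interval 4.10 to 1029, adjusted p = 0.000308), and its log2 change was 6.66 and 3.48 without untreated replicates 1 and 2. IL15 was 1.47-fold lower (−0.56 ± 0.14, adjusted p = 0.00235). IL1A, tested without the filter, had 19 counts against 1 (ratio 19.0, 95% interval 3.03 to 791, adjusted p = 0.00068), and IL7 had 9 against 1 (ratio 9.02, 95% interval 1.25 to 395, adjusted p = 0.0773). IL1A and IL7 did not pass without the filter with palbociclib, indisulam or PF-06873600 alone in A549 (adjusted p = 0.174 or above). The median over the 8 genes was 3.20, beside 0.05 over all genes.

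**Figure D2:**
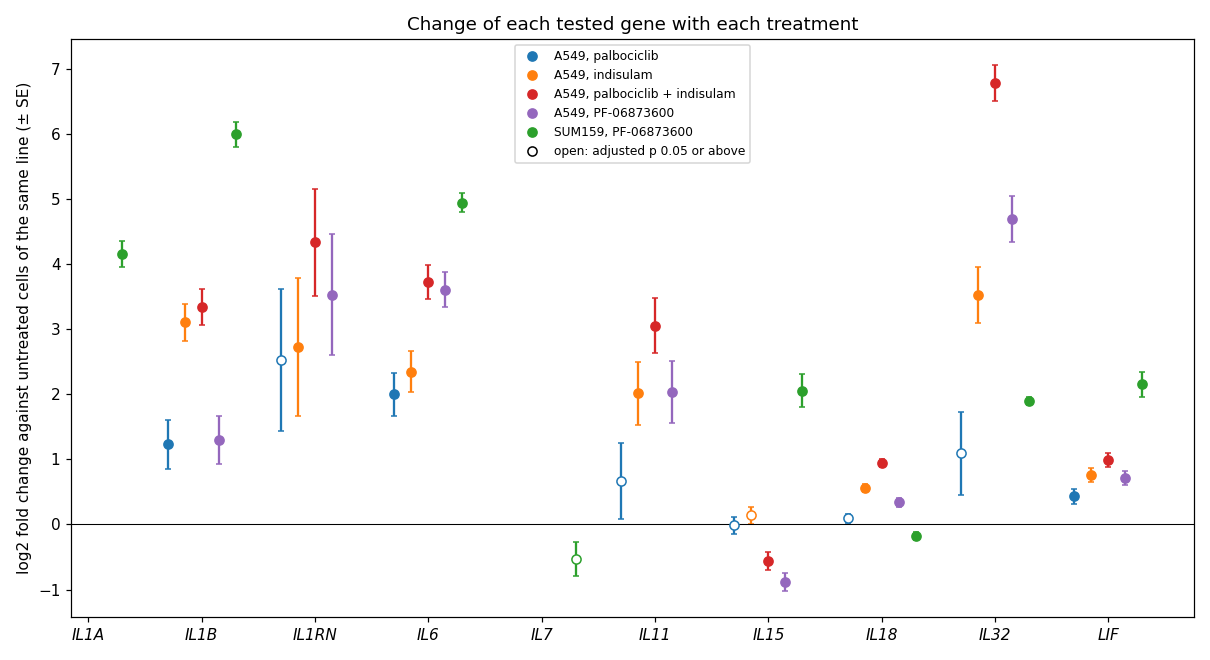
Log2 fold change (± SE) of each tested gene against untreated cells of the same line, for 5 treatments, with open points for adjusted p of 0.05 or above. IL32 with both drugs reached 6.79 and IL1B in SUM159 5.99, and IL15 is below 0 in A549 with both drugs (−0.56) and with PF-06873600 (−0.88).

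Set against palbociclib alone, the combination raised 7 of the 8 tested genes and lowered IL15, beside 33.5% of all genes higher and 26.9% lower. Scaling by TMM gave 4542 genes higher and 5067 lower in place of 5279 and 4250. IL32 was 51.7-fold higher (5.69 ± 0.24), IL11 5.24-fold, IL1B 4.31-fold and IL6 3.31-fold. IL18 and LIF were 1.81-fold and 1.48-fold higher, and IL15 was 1.46-fold lower. IL11 was 2.39 ± 0.38 higher on the log2 scale and 3.60 higher without palbociclib replicate 2. The change of IL1RN was 1.81 ± 0.55 (adjusted p = 0.0113), 2.71 without palbociclib replicate 1, 1.17 without palbociclib replicate 2, where the call was lost (adjusted p = 0.147), and its call was lost also without combination replicate 2 (adjusted p = 0.0699). Without the filter, IL1A passed with 19 counts against 2 (ratio 9.57, 95% interval 2.31 to 84.7, adjusted p = 0.00313), as did IL7, with 9 counts against 0 (at least 1.51-fold higher, adjusted p = 0.0143).

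Set against indisulam alone, the combination raised 5 of the 8 tested genes and lowered IL15, beside 22% of all genes higher and 23.9% lower. IL32 was 9.57-fold higher (3.26 ± 0.18, adjusted p = 2.06e-09) and IL6 2.61-fold higher (1.38 ± 0.19). IL18 was 1.31-fold higher, and IL15 was 1.63-fold lower (−0.70 ± 0.14). IL1B did not differ beyond the spread (0.24 ± 0.19, adjusted p = 0.328), nor did LIF (0.24 ± 0.10, adjusted p = 0.0747), although LIF passed when no filter was used (adjusted p = 0.0104) or only these groups were fitted (adjusted p = 0.00211). IL11 passed at 1.04 ± 0.32 (adjusted p = 0.0142), but not without indisulam replicate 2 or combination replicate 2 (adjusted p = 0.0943 and 0.185), and IL1RN (adjusted p = 0.0239) lost its call without any of the 4 libraries (0.0666 to 0.124).

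The interaction term sets the combination against the log2 changes of palbociclib and indisulam added up. It was called for IL18 (higher, 0.29 ± 0.09, adjusted p = 0.0327) and IL15 (lower, −0.69 ± 0.19, adjusted p = 0.015), 2 of the 8 tested genes, where 10.7% of all genes were called higher and 14.5% lower. For IL15 each single drug left the level within the spread and both together lowered it. IL32 had the largest estimate, 2.17 ± 0.79 (4.49-fold above the sum), which did not pass (adjusted p = 0.0619), and passed without untreated replicate 1 (2.81, adjusted p = 0.0269). LIF, at −0.19 ± 0.15, passed there too (−0.39, adjusted p = 0.0197). IL1B (−0.997 ± 0.418, adjusted p = 0.0993) and IL6 (−0.62 ± 0.40, adjusted p = 0.299) were below the sum without passing. The call of IL18 was lost without untreated replicate 2, either palbociclib replicate, indisulam replicate 1 or combination replicate 1 (adjusted p = 0.0512 to 0.153), and that of IL15 without indisulam replicate 1 or combination replicate 2 (adjusted p = 0.053 and 0.0795).

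**Figure D3:**
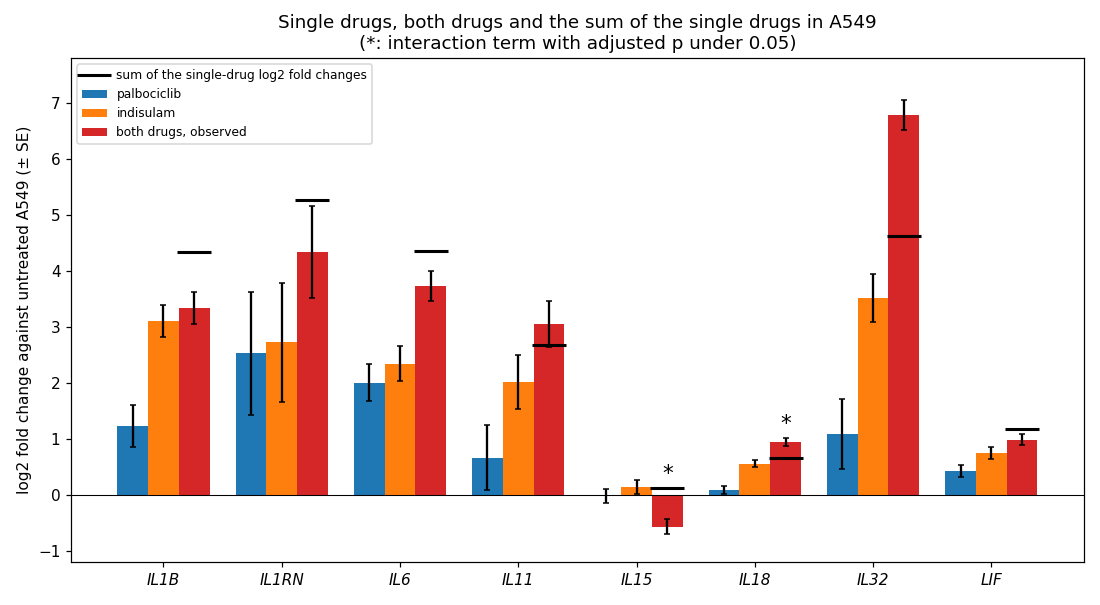
Log2 fold change (± SE) against untreated A549 with palbociclib, indisulam and both drugs for the 8 tested genes, with a black line at the sum of the single-drug changes and an asterisk where the interaction term was called. The bar of IL32 for both drugs (6.79) stands above its line, that of IL15 (−0.56) is below 0, and those of IL1B and IL6 end under their lines.

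PF-06873600 raised 7 of the 8 tested genes in A549 and lowered IL15, beside 28.5% of all genes that rose and 27.8% that fell. IL32 rose by 4.69 ± 0.36 (25.9-fold, adjusted p = 5.27e-08), and by 4.05 and 5.90 without untreated replicates 1 and 2. IL6 rose by 3.61 ± 0.27 (12.2-fold, adjusted p = 3.99e-08). IL11, IL1B, LIF and IL18 rose by 2.04 ± 0.48, 1.29 ± 0.37, 0.72 ± 0.11 and 0.34 ± 0.07, and IL1RN had 14 counts against 1 (ratio 14.2, 95% interval 2.17 to 602, adjusted p = 0.00504), with log2 changes of 5.85 and 2.67 without untreated replicates 1 and 2. IL15 was 1.84-fold lower (−0.88 ± 0.14, adjusted p = 1e-04). These values stand beside those of the 10-day combination without a test, since the times differ: IL6 averaged 6.67 ± 0.424 CPM with PF-06873600 and 7.25 ± 0.220 CPM with both drugs (SD, n = 2), IL1B 1.33 ± 0.0414 and 5.53 ± 0.0031 CPM, and IL32 4.59 ± 0.546 and 19.5 ± 0.235 CPM.

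In SUM159, PF-06873600 raised 6 of 8 tested genes and lowered IL18, beside 38.1% of all 15055 genes that rose and 35.6% that fell. IL1RN and IL11 did not pass the filter, and IL1B was under its limit in both untreated libraries. IL1B rose by 5.99 ± 0.20 (63.7-fold, adjusted p = 1.88e-12), IL6 by 4.95 ± 0.14 (30.9-fold, adjusted p = 4.06e-13) and IL1A by 4.16 ± 0.20 (17.8-fold, adjusted p = 9.66e-11). LIF, IL15 and IL32 rose by 2.15 ± 0.19, 2.06 ± 0.25 and 1.90 ± 0.06. IL18 fell by 0.18 on the log2 scale (SE 0.06, adjusted p = 0.00977), a call that was lost without PF-06873600 replicate 2 (adjusted p = 0.155), and IL7 did not pass (−0.53 ± 0.26, adjusted p = 0.0796). The median over the 8 genes was 2.11, beside 0.02 over all genes.

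Between the untreated lines, 4 of the 10 genes were higher in SUM159 and 3 lower, beside 41.9% of all 17279 genes higher and 36.8% lower. Scaling by TMM gave 6727 genes higher and 6848 lower in place of 7242 and 6365. In the model of both lines IL1A and IL7 passed the filter through SUM159, where they were higher, and IL1B and IL1RN were under its limit of 0.652 CPM in all 4 untreated libraries and passed through treated ones, so these counts and those of the next comparison between lines are a description. IL32 was 207-fold higher in SUM159 (7.69 ± 0.20, adjusted p = 2.65e-17), and the log2 value was 7.05 and 8.91 without A549 untreated replicates 1 and 2. IL6 was 2.94-fold higher. IL7 and IL1A had 69 and 27 counts against 1 each in A549 (ratios 63.0 and 24.6, 95% intervals 10.9 to 2523 and 4.06 to 1009). Without A549 untreated replicates 1 and 2 their log2 values were 4.83 and 8.06 for IL7 and 3.49 and 6.72 for IL1A. LIF was 28.4-fold lower in SUM159 (−4.83 ± 0.17), IL15 13.2-fold lower (−3.72 ± 0.21) and IL18 1.45-fold lower (−0.54 ± 0.07). IL1B and IL11 did not pass (−0.54 ± 0.46 and 0.33 ± 0.64), and IL1RN had at most 1 count in these 4 libraries.

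The response to PF-06873600 differed between the lines for 8 of the 10 genes, beside 25.8% of all genes called higher and 27.2% called lower in this term. IL1A (4.136 ± 2.3, adjusted p = 0.144) and IL1RN (2.825 ± 2.027, adjusted p = 0.264) were not called. The rise in SUM159 exceeded that in A549 for IL1B by 4.69 ± 0.54 (adjusted p = 5.09e-07), for IL15 by 2.94 ± 0.29 (adjusted p = 5.19e-08), for LIF by 1.43 ± 0.26 and for IL6 by 1.34 ± 0.45. IL15 thus fell in A549 and rose in SUM159, in both libraries of each. The response was lower in SUM159 for IL32 by −2.79 ± 0.39 (adjusted p = 6.42e-06), for IL11 by −2.84 ± 0.83, for IL7 by −2.89 ± 1.16 (adjusted p = 0.044) and for IL18 by −0.52 ± 0.09. For IL32 the level itself stayed higher in SUM159, at 136 ± 2.46 against 4.59 ± 0.546 CPM with the drug (SD, n = 2). Without A549 untreated replicates 1 and 2 the value of IL32 was −2.15 and −4.01. The difference for IL6 lost its call without either A549 untreated library or SUM159 untreated replicate 2 (adjusted p = 0.0648 to 0.0766). That for IL11 was −3.44 without SUM159 untreated replicate 2 and lost its call without SUM159 untreated replicate 1 (−1.72, adjusted p = 0.231). IL7 rests on 7 counts in the 4 A549 libraries and lost its call under most alternatives, without A549 PF-06873600 replicate 2 at −1.56 and without A549 untreated replicate 1 at −2.05, and was −5.27 without A549 untreated replicate 2.

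**Figure D4:**
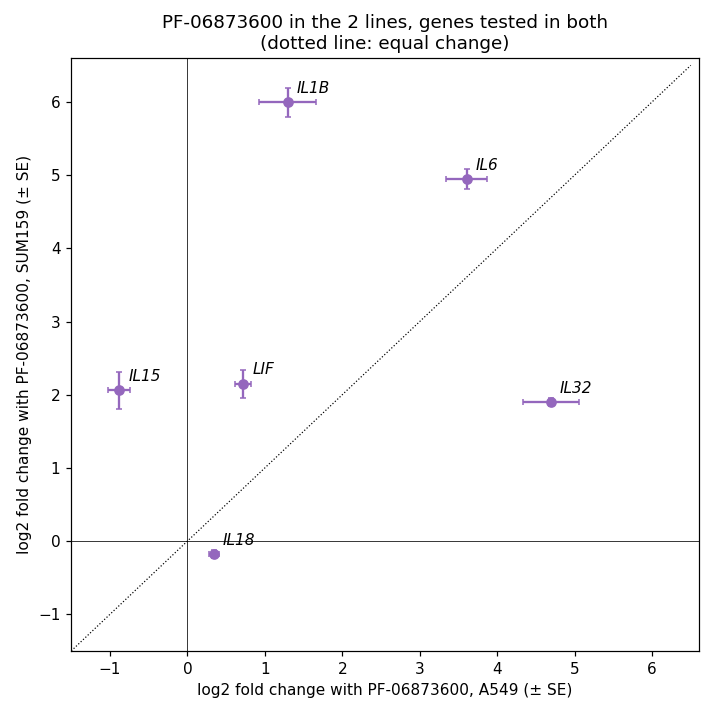
Log2 fold change with PF-06873600 in A549 (x axis) and SUM159 (y axis), ± SE, for the 6 genes tested in both lines, with a dotted line of equal change. IL1B, IL6, LIF and IL15 lie above the line, IL32 and IL18 below it, and the differences of all 6 were called.

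Receptor chains of the 10 cytokines were described in the same tests. IL1R1, the signaling receptor of IL-1, averaged 41.0 CPM in untreated A549 and 45.0 CPM with both drugs (0.13 ± 0.09, adjusted p = 0.204), passed with indisulam alone (0.23 ± 0.09, adjusted p = 0.0451), and rose in SUM159 from 82.7 to 215 CPM (1.38 ± 0.06, adjusted p = 7.25e-11). Its partner IL1RAP rose in A549 from 2.93 to 13.3 CPM with both drugs (2.18 ± 0.16) and was 72.1 and 70.1 CPM in untreated and treated SUM159 (−0.04 ± 0.07, adjusted p = 0.591). The decoy receptor IL1R2 rose in A549 with both drugs (1.03 ± 0.25) and in SUM159 (1.79 ± 0.19). IL18R1, the receptor of IL-18, fell in A549 with both drugs (−0.93 ± 0.30, adjusted p = 0.0137) and with PF-06873600 (−1.61 ± 0.33, adjusted p = 0.000794). It rose in SUM159 (1.15 ± 0.11), and its partner IL18RAP had few or no counts in every group. IL18BP, which neutralizes IL-18, rose with both drugs from 5.70 to 21.4 CPM (1.91 ± 0.19) and had an interaction term of 0.996 ± 0.283 (adjusted p = 0.0186). Of the 20 genes of IL-1 and IL-18 reception and signaling, 16 were tested in A549, and 10 rose and 3 fell with both drugs (median 0.30, beside 0.05 over all genes), where 35.1% of all genes rose and 30% fell. In SUM159, 9 of 17 tested rose and 4 fell (median 0.21, beside 0.02), where 38.1% of all genes rose and 35.6% fell.

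CASP1, which encodes the protease that matures IL-1β and IL-18, rose in A549 from 2.05 CPM to 3.47 with palbociclib, 6.09 with indisulam, 10.4 with both and 7.11 with PF-06873600, and in SUM159 from 35.2 to 52.0 CPM. Among the 13 genes of maturation and inflammasomes, 9 were tested in A549, of which 6 rose and 2 fell with both drugs (median 0.27, beside 0.05), where 35.1% of all genes rose and 30% fell. The sensor NLRP1 rose by 4.55 ± 0.44, from 5 counts in untreated A549 to 123 counts, and the sensor NLRP3 rose in SUM159 by 4.15 ± 0.31. The adaptor PYCARD, which links sensors to caspase-1, averaged 9.09 CPM in untreated A549, whereas in SUM159 it had 2 counts in untreated and 9 in treated cells. In SUM159, 7 of 10 tested genes of this list rose and none fell (median 0.40, beside 0.02), where 38.1% of all genes rose and 35.6% fell.

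**Figure D5:**
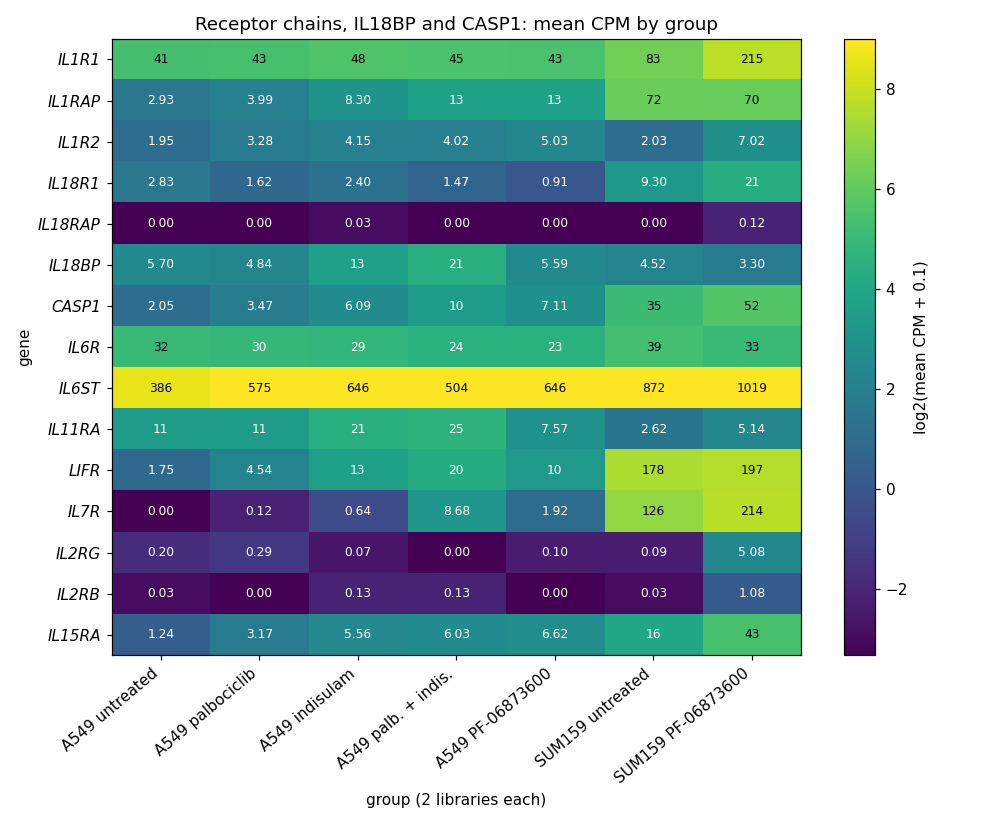
Mean CPM of 13 receptor chains, IL18BP and CASP1 in the 7 groups (2 libraries each), printed in each cell and colored by log2(mean CPM + 0.1). IL7R is 0 in untreated A549 and 214 in treated SUM159, and IL6ST is at or above 386 CPM in every group.

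Among the gp130 genes, the shared chain IL6ST was abundant throughout, at 386 CPM in untreated A549 and 872 CPM in untreated SUM159, and rose with each treatment. The change in A549 was 0.57 ± 0.10 with palbociclib, 0.74 ± 0.10 with indisulam, 0.39 ± 0.10 with both and 0.74 ± 0.10 with PF-06873600, and in SUM159 it was 0.22 ± 0.07. The interaction term of the 2 drugs was −0.93 ± 0.14 (adjusted p = 0.000162). IL6R fell with both drugs (−0.46 ± 0.09), with PF-06873600 in A549 (−0.48 ± 0.09) and in SUM159 (−0.27 ± 0.08). LIFR, the receptor of LIF, rose in A549 from 1.75 CPM by 1.38 ± 0.21 with palbociclib, 2.86 ± 0.18 with indisulam, 3.50 ± 0.17 with both and 2.54 ± 0.19 with PF-06873600, and in SUM159 it rose from 178 to 197 CPM (0.15 ± 0.06). IL11RA rose in A549 with indisulam (0.93 ± 0.22) and both drugs (1.15 ± 0.22). With PF-06873600 its change was −0.56 ± 0.25 in A549 (adjusted p = 0.0749) and 0.98 ± 0.22 in SUM159, where it passed, and the difference between the lines was called (1.53 ± 0.39, adjusted p = 0.00282). The feedback inhibitor SOCS3, a target of gp130 signaling, averaged 9.90 CPM in untreated A549, 29.6 CPM with indisulam and 17.0 CPM with both drugs, with an interaction term of −1.38 ± 0.17 (adjusted p = 3.75e-05). The kinase JAK1 rose by 1.59 ± 0.06 with both drugs. Of the 16 genes, 14 were tested in A549, and 7, 12, 12 and 10 rose with palbociclib, indisulam, both and PF-06873600, and 0, 0, 1 and 2 fell. Of all genes, 8.3, 28, 35.1 and 28.5% rose and 7.4, 17.5, 30 and 27.8% fell in these comparisons. In SUM159, 10 of 15 tested rose and 2 fell, where 38.1% of all genes rose and 35.6% fell.

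Of the common gamma genes, IL7R had 0 counts in both untreated A549 libraries and averaged 8.68 CPM with both drugs, an at least 43.0-fold higher level, whereas it was 126 CPM in untreated and 214 CPM in treated SUM159 (0.76 ± 0.07). IL15RA, which presents IL-15 on the cell surface, rose in A549 from 1.24 CPM by 1.34 ± 0.30 with palbociclib, 2.15 ± 0.27 with indisulam, 2.27 ± 0.27 with both and 2.41 ± 0.26 with PF-06873600, and in SUM159 from 16.2 to 43.0 CPM (1.41 ± 0.08). In A549 IL15RA thus rose in all 4 treated groups, and IL15 fell in 2 of them. IL2RG, the common chain itself, had 3 counts in untreated SUM159 and 191 with PF-06873600 (ratio 54.2, 95% interval 18.3 to 265), and IL2RB had 1 and 41 (ratio 34.9, 95% interval 5.92 to 1411). In A549 both stayed at or under 0.294 CPM on average. Of the 12 genes, 8 were tested in A549, of which 6 rose and 0 fell with both drugs (median 1.76, beside 0.05), where 35.1% of all genes rose and 30% fell. In SUM159, 8 of 11 tested rose and 1, the feedback inhibitor SOCS2, fell (median 0.83, beside 0.02), where 38.1% of all genes rose and 35.6% fell.

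Of 39 other interleukins and gp130 ligands, 5 were tested in A549 and 12 in SUM159. EBI3, a subunit shared by IL-27 and IL-35, had 3 counts in untreated A549 and 165 with both drugs (ratio 55.1, 95% interval 18.5 to 270.1), and rose in SUM159 from 0.276 to 36.2 CPM (7.00 ± 0.19). IL33, an alarmin of the IL-1 family, had 4 counts in untreated A549 and 128 with both drugs (ratio 32.1, 95% interval 12.2 to 120), and 2 and 141 counts in untreated and treated SUM159 (ratio 60.0, 95% interval 16.3 to 500). In SUM159 the IL-1 family members IL36B and IL36RN, an agonist and an antagonist, also appeared. IL36B had 1 and 215 counts, and IL36RN had 0 counts in untreated cells and 157 with PF-06873600, an at least 22.4-fold higher level. With both drugs 4 of the 5 tested genes rose in A549 (median 2.82, beside 0.05), where 35.1% of all genes rose, and in SUM159 9 of 12 rose and 2 fell (median 2.53, beside 0.02), where 38.1% of all genes rose and 35.6% fell.

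Likeness was measured as Pearson's r of log2 CPM over the 14 libraries, with each line centered on its own mean, among 14311 genes. Since all points share libraries and treatments, r is a description. IL6 was most like EBI3 (r = 0.987), TP53INP1 (0.985) and SHC1 (0.985). IL1B was most like TNFRSF10D (0.991), IL32 most like GRK5 (0.991) and LIF most like SLC37A1 (0.990). IL18, IL1A and IL15 were most like AP3B1 (0.988), TUT7 (0.979) and PTP4A3 (0.973), and IL11 reached no more than 0.928, with PLEKHN1. Within the set, IL1B and LIF (0.952), IL1A and IL1B (0.946) and IL6 and LIF (0.943) were closest, and IL15 and IL18 (−0.308) and IL11 and IL15 (−0.302) the most opposed. IL1RN and IL7 were too low on average to enter. IL1A had at most 14 counts in an A549 library, so its r rests on few counts in that line.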

How the data were processed

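The authors sequenced stranded mRNA libraries with single-end reads and deposited 1 table of raw read counts per library (hg38). The processing notes name HISAT2 2.2.1 and HTSeq without a role, and the annotation release and the use of strand are not given in the sources used here. The deposited counts were used as they stand, 60683 genes in 14 libraries, and 9 summary lines were left out (among them reads that fell on several genes, 3.55 to 4.21% of these and the counts on genes together). Symbols of 60370 genes and coordinates came from GENCODE release 44.

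Genes were filtered with filterByExpr and tested with edgeR 4.0.16 in R 4.3.3 by quasi-likelihood on total-count scaling, like the size factor named by the study. Adjusted p-values are Benjamini-Hochberg values, called under 0.05. A549 was fitted on 10 libraries (15780 genes), SUM159 on 4 (15055) and both lines together on 14 (17279). Ratios of low counts carry exact 95% intervals, and a group at 0 was set to 3 counts per library. Alternatives were TMM, DESeq2 1.42.0, no filter, a filter at a mean of 50 counts, the compared groups alone, a replicate block and each library left out. A block that swaps the 2 palbociclib numbers was chosen after seeing the data.

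The 10 genes were named with the receptor chains, IL18BP and CASP1; other list genes were named where they were among the 3 with the largest or lowest change of a list and comparison, with adjusted p under 0.05, a log2 change of 1 or more and 1 CPM or more in the higher group. Each gene of like pattern was the first of 3 by Pearson's r, and all 3 are given for IL6. The marker genes were taken from marker lists. The members and lists were chosen with earlier results of these data known. The scripts were tested on simulated data. Other tools were Python 3.11.15, pandas 2.3.3, numpy 2.4.6, scipy 1.17.1 and matplotlib 3.10.9.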

Additional observations from a re-analysis of the deposited data

Results flagged for a closer look

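The effect of PF-06873600 differed between SUM159 and A549 in the interaction term for 8 of the 10 genes, as log2 fold change in SUM159 minus that in A549. Of all 17279 genes, 25.8% were called higher and 27.2% lower in this term. The differences were 4.69 for IL1B, 2.94 for IL15, 1.43 for LIF, 1.34 for IL6, −0.52 for IL18, −2.79 for IL32, −2.84 for IL11 and −2.89 for IL7. The calls of IL6, IL11 and IL7 were each lost when certain single libraries were left out. In A549 and SUM159 the fold changes had opposite signs for IL15 (−0.88 and 2.06) and IL18 (0.34 and −0.18). The lines differ in tissue and in culture medium, which cannot be told apart here. The part of either, or of the markers that differ between the lines, was not tested.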

How the results depend on the processing

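Of 84 results for single genes, 63 kept their direction and their side of the threshold under every alternative, and 804 of 865 alternatives did so. With a mean of at least 50 counts fewer of the 10 genes were tested, so that 4 were called with indisulam, 5 with both drugs, 5 between both drugs and palbociclib, and 5 with PF-06873600 in A549. Fitting only the compared groups left 1 call with palbociclib and 1 in the interaction term, where DESeq2 also gave 1. Without 1 library in turn, the calls ranged from 1 to 3 with palbociclib and from 0 to 4 in the interaction term. Values within the spread changed sign for IL15 with palbociclib (−0.162 to 0.151 with 1 library left out), IL15 with indisulam (−0.008 to 0.305), IL11 with palbociclib (−0.547 to 1.23), IL11 in the interaction (−0.187 to 1.589) and IL11 between the lines (−0.785 to 0.936). The cause was not tested. Besides those given with the results, DESeq2 ended the calls of IL1B with palbociclib, IL11 and IL1RN of the combination against indisulam, IL18 in SUM159 (adjusted p = 0.0534), IL15 in the interaction (0.0524), IL7 in the response between lines (0.16) and IL1RN with indisulam, with PF-06873600 in A549 and against palbociclib. The call of IL18 in the interaction was lost with only the compared groups (0.0592), and that of IL1RN with indisulam also under TMM (0.0566) and with no filter (0.0701). DESeq2 called 967 genes higher and 617 lower with palbociclib (1310 and 1168 by edgeR), 2742 higher with indisulam (4420) and 1494 lower in the interaction (2281). TMM moved the median of all genes by at most 0.093. The deviations of same-numbered libraries correlated between −0.194 and 0.138, with 2 pairs each, so the numbers were not taken to pair the samples, and the replicate block ended only the calls of IL1RN with indisulam (adjusted p = 0.0588) and IL7 in the response between lines (0.0548). Crossing the 2 palbociclib numbers gave 3023 genes called (2337 with the numbers as labelled, 2478 without a block) and, like both others, 3 calls among the 10 genes. Depth limits IL1A, IL1RN and IL7 in A549, which had at most 14 counts in a library.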
